A study of Mus musculus with 6 samples.

Results

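Reticulons and their neighbors in the endoplasmic reticulum (ER) membrane were followed in calf muscle with and without *Rtn4*, the gene that encodes the Nogo proteins. The 10 genes described here were listed by name, as a family of ER-shaping proteins and by no threshold on their values, though with earlier results of these data known, and all 10 were found by gene identifier among the 12353 genes measured. A gene entered the table when at least 1 library reached 1 FPKM, and 9 of the 10 did so in all 6 libraries, *Rtn4* being the exception. They comprised the reticulons *Rtn2*, *Rtn3* and *Rtn4*, the REEP genes *Reep1*, *Reep3* and *Reep5*, the atlastins *Atl2* and *Atl3*, *Arl6ip1* and the sheet protein gene *Ckap4*. Polyadenylated RNA of the gastrocnemius was sequenced from 6 mice, 3 of them Nogo+/+ and 3 Nogo-/-, as separate libraries, and no treatment is given for either group. The mutant is labeled as a Nogo knock-out, supplied by an outside laboratory, and the exons it lacks and the age, sex and strain of the sequenced mice are not given in the sources used here. The question was how each relative was expressed, how much *Rtn4* RNA was left, and whether any relative was higher where *Rtn4* was missing.

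The ER is one continuous membrane of flat sheets and curved tubules. Reticulons and REEP proteins insert hairpin-shaped membrane segments into the outer leaflet and bend it into tubules, atlastins are GTPases that fuse tubules into a network, and Ckap4 (also known as CLIMP-63) spaces the sheets. In muscle fibers much of the ER is specialized as the sarcoplasmic reticulum, which stores and releases calcium. *Rtn4* yields the long Nogo-A, the intermediate Nogo-B and the short Nogo-C, and Nogo-C starts from a promoter of its own.

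All reticulons share a C-terminal reticulon homology domain and differ before it. The last 60 coding bases before the stop codon of the longest GENCODE M21 coding sequence of each reticulon are shown because they carry the lysine codons near the C-terminus, where reticulons have an ER-targeting lysine motif. Capitals mark lysine codons among the last 7 codons.
Rtn1: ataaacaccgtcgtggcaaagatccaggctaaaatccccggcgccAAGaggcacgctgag
Rtn2: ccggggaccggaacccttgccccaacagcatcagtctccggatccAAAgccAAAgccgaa
Rtn3: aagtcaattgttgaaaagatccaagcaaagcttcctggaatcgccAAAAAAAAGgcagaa
Rtn4: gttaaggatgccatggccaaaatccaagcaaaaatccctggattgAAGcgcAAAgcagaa
The number of these codons was 1 in *Rtn1*, 2 in *Rtn2*, 3 in *Rtn3* and 2 in *Rtn4*. Over the last 190 residues of the encoded proteins, Rtn4 was identical to Rtn1 at 67.4% of aligned positions, to Rtn3 at 60.3% and to Rtn2 at 47.2%. The longest run of bases shared exactly by any annotated *Rtn4* transcript and a transcript of another reticulon was 16 with *Rtn2*, 14 with *Rtn1* and 13 with *Rtn3*.

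*Rtn4* lies on the plus strand at chr11:29692947-29744331 (GRCm38). Its longest annotated product, from Rtn4-205, has 1162 residues, the length of Nogo-A, and its shortest, from Rtn4-201, has 199 residues, the length of Nogo-C. RefSeq lists 3 starts for the gene (GRCm38.p6). The 250 bases before the first start and before the start at position 29718563, which is that of Rtn4-201 and lies within the span of the longer transcripts, are shown because the FPKM of the gene pools transcripts from all starts. Capitals mark CATTCC or its reverse complement and CANNTG (the E-box, which reads the same on both strands), and no 2 of these matches overlapped.
Rtn4 first start, chr11:29692648-29692897, plus strand: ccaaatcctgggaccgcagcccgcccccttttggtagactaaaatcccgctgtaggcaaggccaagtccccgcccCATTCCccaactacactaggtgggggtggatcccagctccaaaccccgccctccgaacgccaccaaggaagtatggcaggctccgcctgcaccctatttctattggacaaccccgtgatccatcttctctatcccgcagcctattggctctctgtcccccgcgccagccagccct
Rtn4-201 start, chr11:29718313-29718562, plus strand: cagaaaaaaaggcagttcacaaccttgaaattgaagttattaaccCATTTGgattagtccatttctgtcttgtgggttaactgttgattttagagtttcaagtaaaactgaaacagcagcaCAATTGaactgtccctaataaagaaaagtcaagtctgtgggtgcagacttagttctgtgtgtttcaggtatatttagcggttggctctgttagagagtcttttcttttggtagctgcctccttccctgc
The first window held 12 CpG dinucleotides and the Rtn4-201 window 1, where 33.5% and 92.1% of the 32851 windows of the same length held at least as many. The window of the remaining start (chr11:29693524-29693773), not shown, held 31, and 5.19% of all windows held at least as many. The Rtn4-201 window held 2 E-box matches, and 31.8% of all windows held at least 2. The first window held 1 match to CATTCC or its reverse complement, which 12.6% of all windows contained. These matches describe letters and not sites of binding.

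*Rtn4* RNA was almost gone from the Nogo-/- muscles. Its level, in fragments per kilobase of transcript and 1000000 mapped fragments (FPKM, which is scaled to length, so that genes can be compared), was 414, 429 and 425 in the Nogo+/+ libraries (Samples 1 to 3). It was 0.423, 0.312 and 0.368 in the Nogo-/- libraries (Samples 4 to 6). The groups lay far apart and no library went against its label. The remaining mean was 0.0870% of the Nogo+/+ mean, and the log2 difference was -8.40 ± 0.08 (SE, n = 3 and 3; adjusted p = 2.08e-10, limma with Benjamini-Hochberg adjustment over all genes, as for every adjusted p below). Differences on the log2 scale are of log2(FPKM + 1) after quantile normalization, which understates the change of a gene with low FPKM, most of all near 0. Depending on the transcript behind them, the residual values correspond to 6 to 27 fragments per library, against 7277 to 28330 in the Nogo+/+ libraries. The values are per gene and do not say which isoform the residual fragments came from. For the other members, a change in the number of expressing cells and a change in RNA per cell cannot be told apart in whole muscle.

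The libraries were even in depth, at about 13516000 to 14481000 fragments each as recovered from the FPKM of single-transcript genes. Markers of fast fibers, which make up most of this muscle, summed to 36146 to 36774 FPKM in Nogo+/+ and 34583 to 36757 FPKM in Nogo-/-. Of 11 such markers 0 passed in limma, with 1 at an unadjusted p under 0.05, a level that 20.5% of all genes reached. Quantile normalization left no difference in *Ckm*, *Acta1*, *Tnnt3* and *Myh4*, which therefore could not pass. Their deposited Nogo-/- means were 97.4%, 95.2%, 97.7% and 91.6% of the Nogo+/+ means. Of 7 endothelial markers, 5 passed as lower, where 2.75% of all genes did, and 6 had an unadjusted p under 0.05. Their sum was 123 to 139 FPKM in Nogo+/+ and 88.8 to 107 FPKM in Nogo-/-, and none was at 0 in any library. *Reep1* and *Ckap4*, given below, also had lower values but did not pass. All 8 fat cell markers had differences above 0 and 0 passed, with 4 at an unadjusted p under 0.05 (604 to 678 and 645 to 1105 FPKM). Markers of slow fibers (8 measured), nerve (5), leukocytes (7), fibroblasts (6) and blood (5) had 0 calls each, with 3 slow fiber markers at an unadjusted p under 0.05. All 8 slow fiber and all 5 blood markers had differences below 0, whereas nerve, leukocyte and fibroblast markers went both ways. The part of other cell types in the values of the members was not tested. Sample 6 stood apart by skin epithelium markers (218 FPKM in sum against 5.18 to 14.7 FPKM in the other 5 libraries), of which 4 of 8 were at 0 in some library. Without it *Rtn4* differed by -8.36 on the log2 scale (adjusted p = 5.97e-10 in limma) and 0 of the other 9 members passed, with *Reep1* at -0.27 (0.109) and *Ckap4* at -0.29 (0.142).

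Next, the levels of the 10 genes were compared with one another. *Rtn2* was the most abundant member in both groups, and *Rtn4* was second in Nogo+/+ muscle. *Rtn2*, a reticulon enriched in skeletal muscle and mutated in a hereditary spastic paraplegia, measured 758, 708 and 727 FPKM in Nogo+/+ and 723, 740 and 741 FPKM in Nogo-/-. Its Nogo+/+ mean was 1.73 times that of *Rtn4*, 35.6 times that of *Rtn3* and 232 times that of *Atl3*, the lowest member. By their Nogo+/+ means, *Rtn2* and *Rtn4* ranked 51 and 116 among all genes and *Atl3* ranked 8534, and 7 of the 10 members lay above the median of all genes, 6.74 FPKM. In Nogo-/- muscle *Rtn4* fell to rank 12316, and the order of the other 9 means was the same as in Nogo+/+.

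**Figure D1:**
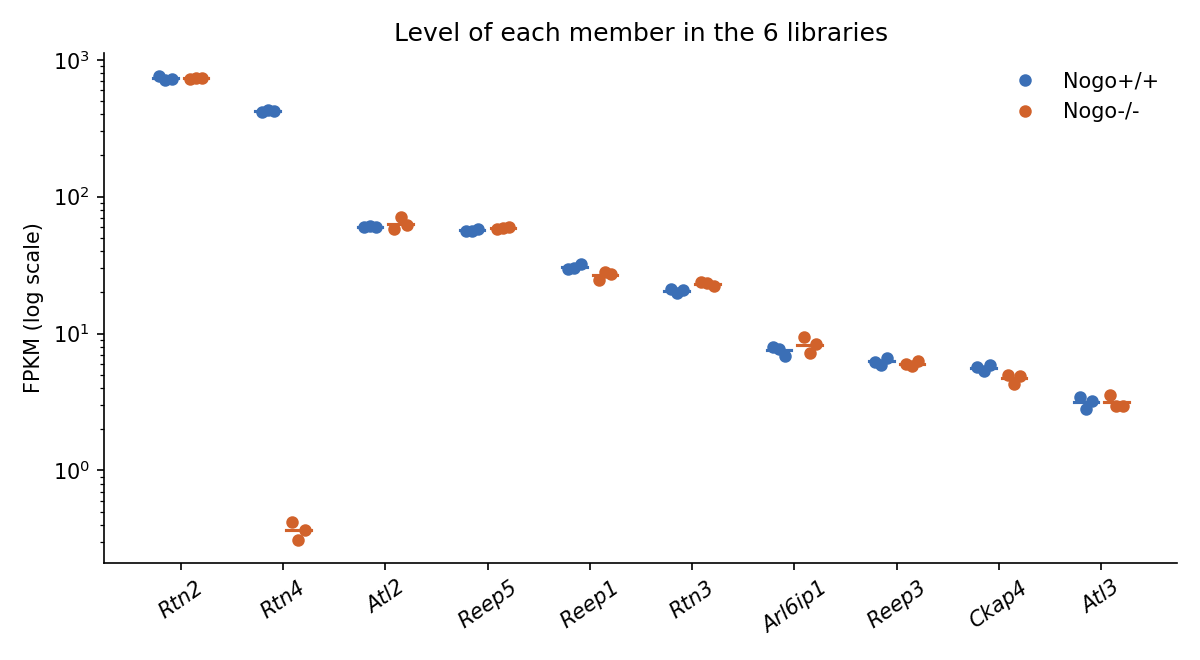
FPKM on a log axis of the 10 members, ordered by their mean in Nogo+/+ muscle, in each of 3 Nogo+/+ (blue) and 3 Nogo-/- (orange) libraries. Points are libraries and lines are group means. *Rtn4* drops from 414 to 429 FPKM to under 0.5, whereas the ranges of *Rtn2* overlap, between 708 and 758 FPKM.

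Most neighbors in this order stood apart. The ranges of *Reep3* and *Ckap4* overlapped in Nogo+/+ muscle and those of *Atl2* and *Reep5* overlapped in Nogo-/- muscle, and no other neighboring pair overlapped in either group. Spread between mice was small, with a coefficient of variation from 0.908% (*Atl2*, Nogo+/+) to 13.6% (*Arl6ip1*, Nogo-/-) over the 9 members other than *Rtn4*. The highest of the 6 libraries was 1.07 times the lowest for *Reep5* and 1.398 times the lowest for *Ckap4*, the narrowest and widest of the 9.

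No relative of *Rtn4* passed the test. Of the 10 members, 1 was lower (*Rtn4*), 0 were higher and 9 did not pass, in a comparison that called 4.64% of all genes, 1.89% as higher and 2.75% as lower. At an unadjusted p under 0.05 there were 3 of 10, *Rtn4*, *Reep1* and *Ckap4*, each lower, where 20.5% of all genes reached that level. The median log2 difference of the 10 was -0.03, beside -0.01 over all genes. The ranges of deposited FPKM did not overlap between the groups for 5 of the 10 members, with *Reep5* and *Rtn3* higher in Nogo-/- and *Rtn4*, *Reep1* and *Ckap4* lower. Of all genes 25.9% were separated in this way in one direction or the other. After quantile normalization the ranges of *Reep5* overlapped.

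**Figure D2:**
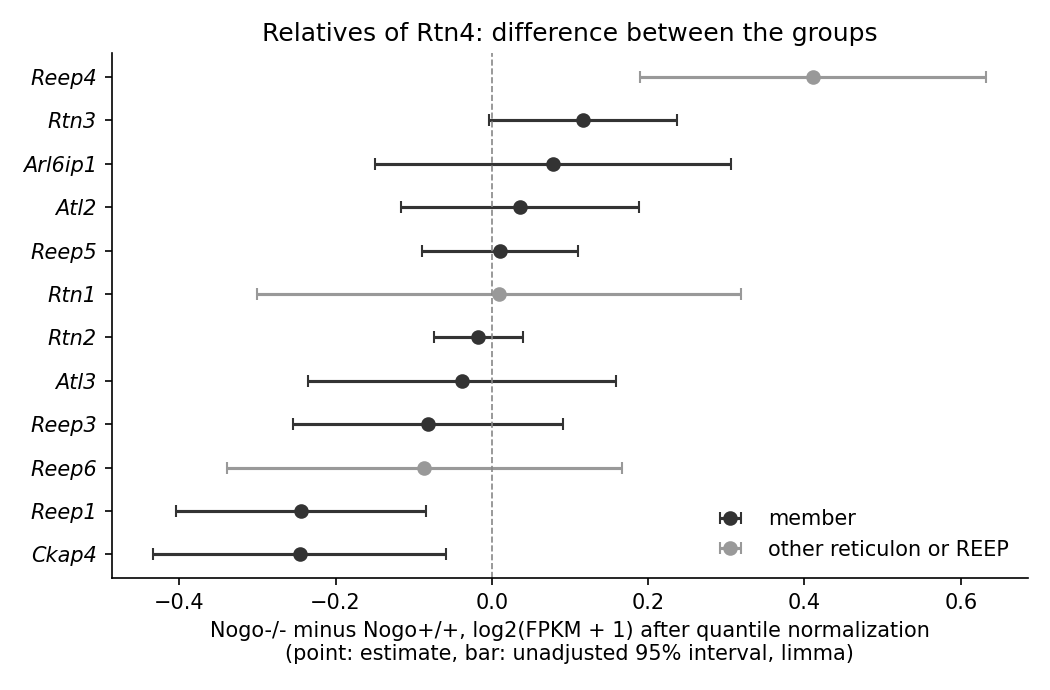
Difference between Nogo-/- and Nogo+/+ muscle in log2(FPKM + 1) after quantile normalization for the 9 members other than *Rtn4* (dark) and for *Rtn1*, *Reep4* and *Reep6* (gray). Points are limma estimates and bars unadjusted 95% intervals, with 3 mice per group. The intervals of *Reep4*, *Reep1* and *Ckap4* lie to one side of 0, and no gene shown passed after adjustment.

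Among the reticulons, *Rtn2* differed by -0.02 on the log2 scale, with a 95% interval from -0.07 to 0.04 (adjusted p = 0.747). The interval spans a change in normalized FPKM + 1 from -5.01% to 2.78%. *Rtn3*, which also acts as a receptor for the selective autophagy of ER tubules, measured 21.2, 19.6 and 20.7 FPKM in Nogo+/+ and 23.8, 23.6 and 22.1 FPKM in Nogo-/-. Every Nogo-/- library was above every Nogo+/+ library, and the log2 difference was 0.12 (interval -0.0041 to 0.24, adjusted p = 0.260). *Rtn1*, a reticulon best known from neurons, is not one of the 10 and was at the edge of detection in both groups, at 0.622 to 1.02 FPKM in Nogo+/+ and 0.732 to 0.916 FPKM in Nogo-/- (log2 difference 0.01, adjusted p = 0.981).

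Reticulon RNA was then summed per mouse. The FPKM of *Rtn1* to *Rtn4* together came to 1194, 1157 and 1174 in Nogo+/+ and 748, 765 and 764 in Nogo-/-, so that 64.6% of the Nogo+/+ mean remained. These groups did not overlap, and the exact permutation test over mice gave p = 0.1 (two-sided), the smallest that 3 against 3 allows. Without *Rtn4* the sums were 780, 728 and 749 in Nogo+/+ and 748, 764 and 764 in Nogo-/-, which overlapped (means 753 and 759, difference 6.15 FPKM, p = 0.8 in the same exact test). The sign of this small difference turned with quantile normalization, where it was -6.86 FPKM, with median scaling (-11.4 FPKM) and without Sample 2 (-6.09 FPKM). The share of *Rtn4* in reticulon FPKM was 34.7% to 37.1% in Nogo+/+ and 0.0407% to 0.0566% in Nogo-/-, and that of *Rtn2* was 61.2% to 63.5% and 96.6% to 96.9%.

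**Figure D3:**
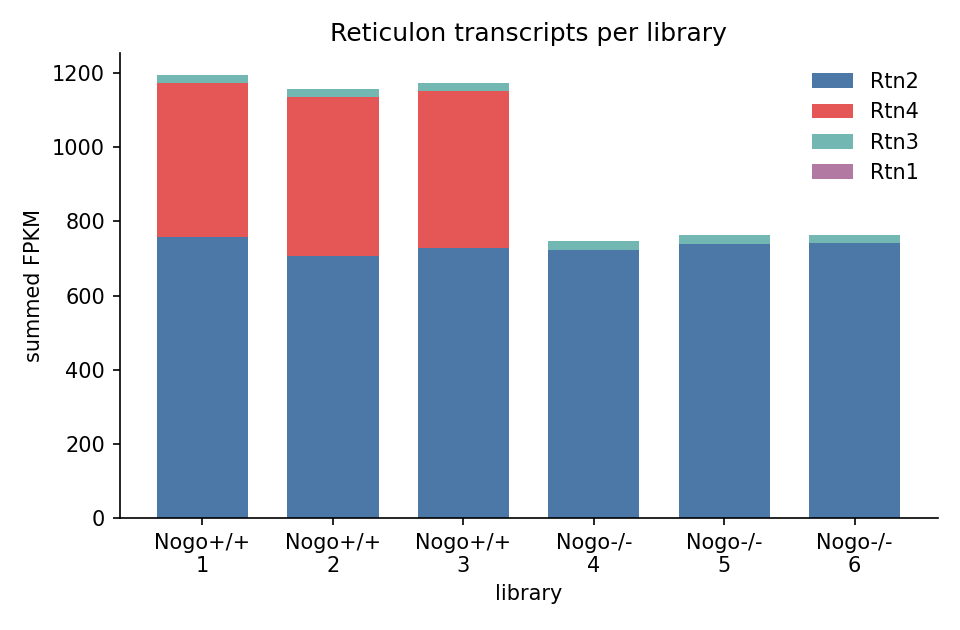
Summed FPKM of the 4 reticulons in each library, stacked by gene, with 3 Nogo+/+ libraries on the left and 3 Nogo-/- libraries on the right. The bars reach 1157 to 1194 in Nogo+/+ and 748 to 765 in Nogo-/-, where the *Rtn4* part is too small to see, and the *Rtn2* part lies between 708 and 758 in all 6.

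*Rtn4* lost 422 FPKM between the group means, and the 9 other members together differed by 7.26 FPKM, or 1.72% of that loss. The largest single difference upward was 3.43 FPKM for *Rtn2*, whose normalized difference was below 0, and the largest downward was -3.90 FPKM for *Reep1*. The upper ends of the 95% intervals were also taken as percent changes and applied to the Nogo+/+ mean FPKM. They correspond to a rise of 20.3 FPKM for *Rtn2*, 8.38 FPKM for *Atl2*, 4.54 FPKM for *Reep5* and 3.67 FPKM for *Rtn3*. Protein was not measured in these libraries.

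The REEP genes encode hairpin proteins that bend tubules, and *Reep1* is mutated in a hereditary spastic paraplegia. *Reep1* measured 29.6, 30.2 and 32.3 FPKM in Nogo+/+ and 24.7, 28.4 and 27.3 FPKM in Nogo-/-. All Nogo-/- libraries were below all Nogo+/+ libraries, with a log2 difference of -0.24 ± 0.07 (SE, n = 3 and 3), an interval from -0.40 to -0.08 and an adjusted p of 0.0963 in limma. *Reep5*, the closest mammalian relative of the yeast tubule protein Yop1 in this set and abundant in muscle, measured 56.1, 56.4 and 58.0 FPKM in Nogo+/+ and 58.1, 58.6 and 59.98 FPKM in Nogo-/-. The lowest Nogo-/- library was just above the highest Nogo+/+ library, and the normalized difference was 0.01 (interval -0.09 to 0.11, adjusted p = 0.929). *Reep3*, which helps to clear ER from chromosomes during mitosis together with *Reep4*, measured 6.25, 5.89 and 6.69 FPKM in Nogo+/+ and 6.03, 5.81 and 6.28 FPKM in Nogo-/-, with overlapping groups and a difference of -0.08 (adjusted p = 0.606).

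The REEP gene furthest from 0 was not among the 10 members. *Reep4* measured 3.07, 2.69 and 2.85 FPKM in Nogo+/+ and 4.15, 3.88 and 4.81 FPKM in Nogo-/-, with no overlap. Its log2 difference was 0.41 ± 0.10 (SE, n = 3 and 3; adjusted p = 0.0526 in limma), just short of the threshold. It passed under 4 alternatives that kept all libraries, with adjusted p from 0.0376 to 0.0499, and in none of the fits with 1 library left out (0.0654 to 0.188). *Reep6* was at 1.45 to 1.59 FPKM in Nogo+/+ and 1.16 to 1.62 FPKM in Nogo-/- (difference -0.09, adjusted p = 0.715). Of the 5 REEP genes measured, 0 passed the test in limma, and 2 (*Reep1* and *Reep4*) had an unadjusted p under 0.05 (20.5% of all genes), in opposite directions.

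The atlastins did not pass the test. *Atl2* measured 60.4, 60.6 and 59.6 FPKM in Nogo+/+ and 58.3, 70.6 and 61.8 FPKM in Nogo-/-. The Nogo-/- values lay on both sides of the Nogo+/+ values, with Sample 5 the highest (difference 0.04, interval -0.12 to 0.19, adjusted p = 0.807). *Atl3*, which also serves as a receptor in ER autophagy, measured 3.43, 2.82 and 3.19 FPKM in Nogo+/+ and 3.53, 2.95 and 2.94 FPKM in Nogo-/- (difference -0.04, interval -0.24 to 0.16, adjusted p = 0.845). *Atl3* starts 10758 bases from *Rtn3* on chromosome 19, on the opposite strand (chr19:7494040-7539674 and chr19:7425901-7483281, GRCm38).

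*Arl6ip1*, a small hairpin protein that shapes tubules, measured 8.003, 7.70 and 6.91 FPKM in Nogo+/+ and 9.42, 7.16 and 8.35 FPKM in Nogo-/-. The groups overlapped (difference 0.08, interval -0.15 to 0.31, adjusted p = 0.715). *Ckap4* measured 5.69, 5.29 and 5.94 FPKM in Nogo+/+ and 5.01, 4.25 and 4.93 FPKM in Nogo-/-, with every Nogo-/- library lower. Its log2 difference was -0.25 ± 0.08 (SE, n = 3 and 3), with an interval from -0.43 to -0.06 and an adjusted p of 0.142 in limma. The interval corresponds to a change in normalized FPKM + 1 from -25.9% to -3.98%, and the added 1 shrinks it at such low values.

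In a wider list of 15 genes for tubule fusion and curvature, 0 passed in limma and 4 had an unadjusted p under 0.05, beside 20.5% of all genes, with a median log2 difference of -0.04. *Lnpk* (lunapark), which stabilizes the 3-way junctions of tubules, measured 7.96, 8.15 and 8.55 FPKM in Nogo+/+ and 10.001, 10.9 and 10.5 FPKM in Nogo-/-. The groups did not overlap, and the difference was 0.28 (adjusted p = 0.0559, and 0.0359 without quantile normalization). *Rab10*, a GTPase that marks growing tubules, had 104 to 108 FPKM in Nogo+/+ and 96.3 to 99.2 FPKM in Nogo-/- (difference -0.15, adjusted p = 0.0983). *Arl6ip6* had 4.28 to 5.07 and 3.53 to 4.15 FPKM (difference -0.27, adjusted p = 0.139).

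Of 8 ER sheet genes, which besides *Ckap4* include ribosome receptors and parts of the translocon, 0 passed in limma and 2 had an unadjusted p under 0.05, again beside 20.5% of all genes (median 0.11). These were *Sec63*, a translocon partner, with 10.2 to 11.1 FPKM in Nogo+/+ and 12.3 to 13.4 FPKM in Nogo-/- (difference 0.24, adjusted p = 0.121), and *Ckap4*, in the other direction. *Ktn1* (kinectin) had 48.2 to 49.7 and 43.8 to 49.6 FPKM (difference -0.12, adjusted p = 0.259). Of 9 ER-phagy receptors, *Rtn3* and *Atl3* included, 0 passed in limma and 0 had an unadjusted p under 0.05 (median -0.03). Among them *Retreg3* was furthest by p, at 22.4 to 23.3 and 20.9 to 22.4 FPKM (difference -0.11, adjusted p = 0.256). *Ccpg1*, at 26.5 to 29.3 and 30.3 to 33.0 FPKM, differed by 0.10 (adjusted p = 0.387).

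**Figure D4:**
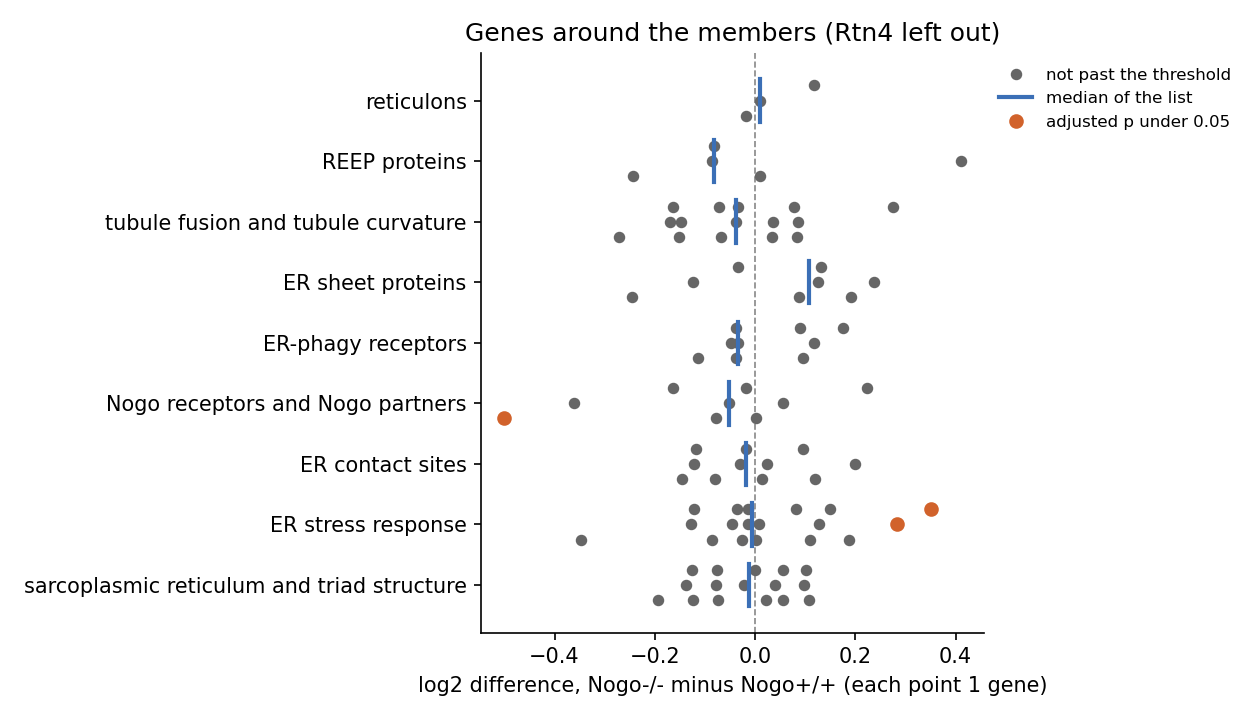
Difference between Nogo-/- and Nogo+/+ muscle, on the log2 scale after quantile normalization, for each gene of 9 lists around the members, with *Rtn4* left out. Each point is 1 gene, orange points passed at an adjusted p under 0.05 in limma and blue lines are list medians. *Herpud1* and *Dnajb9* of the ER stress list and *Bace1* among Nogo partners are the 3 orange points.

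Genes listed as Nogo receptors and Nogo partners were taken next. Of 14 listed, 9 were measured, of which 1 was lower and 8 did not pass (median -0.05), where 2.75% of all genes were called lower. *Rtn4r*, *Rtn4rl2*, *Lingo1*, *Ngfr* and *Omg* were not in the table. The Nogo receptor gene *Rtn4r* was therefore not compared. At an unadjusted p under 0.05 there were 2, *Bace1* and *S1pr2*, both lower, beside 20.5% of all genes. *Bace1*, a protease that reticulons bind, measured 15.4, 15.6 and 15.9 FPKM in Nogo+/+ and 12.3, 10.2 and 11.0 FPKM in Nogo-/-. It was lower in every Nogo-/- library, with a log2 difference of -0.50 ± 0.07 (SE, n = 3 and 3; adjusted p = 0.00926 in limma). Its adjusted p rose to 0.0564 without Sample 2 and to 0.0531 without Sample 3. *S1pr2*, a receptor for a Nogo-A segment, was low in all libraries. It had 0.589 to 1.03 FPKM in Nogo+/+ and 0.442 to 0.586 FPKM in Nogo-/-, with no overlap (difference -0.36, adjusted p = 0.223). *S1pr2* entered the table through Sample 2 of Nogo+/+ alone. Entry by that group favors a lower value in Nogo-/-, so its unadjusted p and its separation carry no weight. *Tnfrsf19*, a Nogo co-receptor, had 3.77 to 4.64 and 4.78 to 5.72 FPKM (difference 0.22, adjusted p = 0.258).

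Of 18 ER stress genes, 2 passed as higher, 0 as lower and 16 did not pass, with a median of -0.01. Of all genes 1.89% passed as higher and 2.75% as lower. At an unadjusted p under 0.05 there were 5 of the 18, each higher, beside 20.5% of all genes. The ranges of deposited FPKM did not overlap for 7 higher genes and 0 lower ones, beside 25.9% of all genes in either direction. *Herpud1*, which acts in ER-associated degradation, measured 64.5, 59.98 and 65.4 FPKM in Nogo+/+ and 81.9, 91.4 and 75.9 FPKM in Nogo-/- (difference 0.35, adjusted p = 0.0227). *Dnajb9*, a co-chaperone of BiP, measured 11.5, 11.5 and 11.8 FPKM in Nogo+/+ and 14.7, 14.7 and 14.9 FPKM in Nogo-/- (difference 0.28, adjusted p = 0.0290). Both were higher in every Nogo-/- library. *Dnajb9* did not pass when any 1 library was left out (adjusted p from 0.0573 to 0.113), and *Herpud1* did not pass without Sample 1, 2, 3 or 4 (0.0540 to 0.108) or without a variance trend (0.0673). *Hspa5*, which encodes BiP, had 67.8 to 69.9 and 76.4 to 80.8 FPKM (difference 0.15, adjusted p = 0.105).

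Genes around *Rtn4* were described next, since they lie beside the altered locus. Within 1000000 bases on each side, 11 other genes were measured, of which 1 was higher and 10 did not pass (median 0.11). Of all genes 1.89% were called higher, and the median over all genes was -0.01. *Rps27a*, which encodes a ubiquitin and ribosomal protein fusion, lies 145 kb before *Rtn4* and measured 218, 214 and 220 FPKM in Nogo+/+ and 280, 278 and 263 FPKM in Nogo-/-. Its groups did not overlap, with a log2 difference of 0.28 ± 0.03 (SE, n = 3 and 3; adjusted p = 0.00171 in limma). Whether near-identical copies of this gene elsewhere in the genome share its reads was not tested. The nearest measured gene, *Gm12092*, 47.4 kb before *Rtn4*, had 0.123 to 0.346 FPKM in Nogo+/+ and 0.575 to 1.08 FPKM in Nogo-/- (difference 0.50, adjusted p = 0.151), and it entered the table through 1 Nogo-/- library alone. *A630052C17Rik*, with 0.705 to 0.789 FPKM in Nogo+/+ and 0.823 to 1.08 FPKM in Nogo-/-, also entered through Nogo-/- libraries alone. The median of the surroundings includes *Gm12092* and *A630052C17Rik*. *Sptbn1* and *Acyp2*, after *Rtn4*, differed by -0.06 and -0.02.

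**Figure D5:**
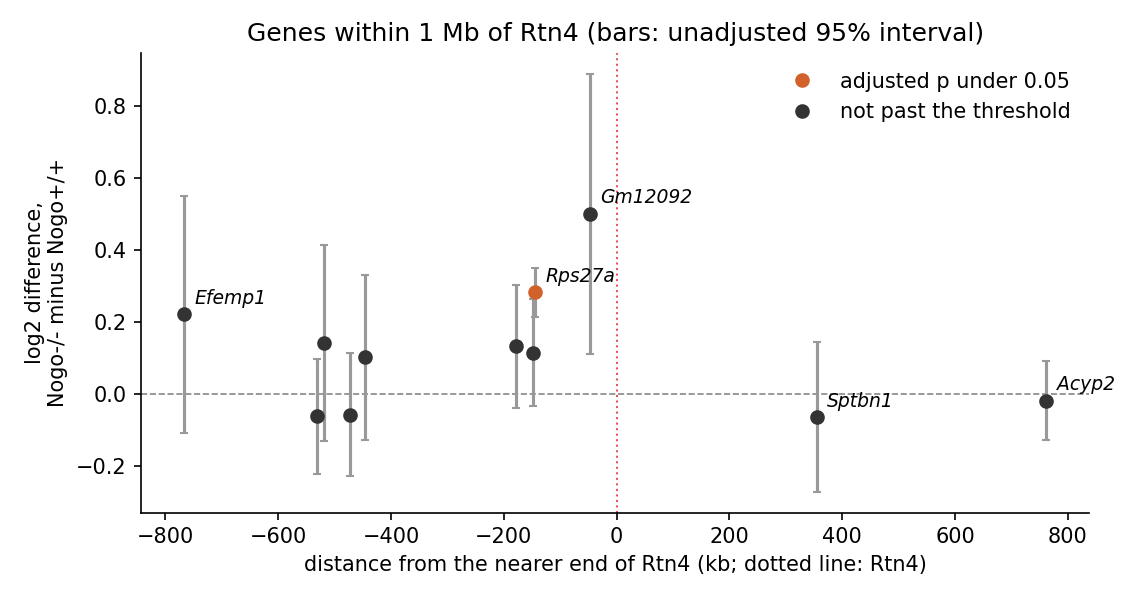
Difference between Nogo-/- and Nogo+/+ muscle on the log2 scale for the 11 measured genes within 1 Mb of *Rtn4*, by distance in kb from its nearer end (dotted line at *Rtn4*). Bars are unadjusted 95% intervals from limma. *Rps27a* is the only gene past the threshold, and *Gm12092* lies highest with a wide interval.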

How the data were processed

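The authors isolated total RNA from gastrocnemius of 3 Nogo+/+ and 3 Nogo-/- mice, prepared stranded mRNA libraries and sequenced them on a HiSeq instrument. According to the submitters' processing notes and the study's methods, they used CASAVA 1.8.2, cutadapt 1.4.2, STAR 2.6.1 and Cufflinks 2.2.1 with GRCm38.p6, and deposited gene FPKM for each library, keeping genes that reached 1 FPKM somewhere. The heading of a supplementary table with the same values assigns Samples 1 to 3 to wild type and 4 to 6 to the knock-out. The 6 columns of log2 values in the same table were not used.

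Here FPKM were quantile-normalized over 12353 genes, transformed as log2(FPKM + 1) and compared with limma 3.58.1 in R 4.3.3 (variance trend, no covariates, two-sided, Benjamini-Hochberg adjustment over all genes, threshold 0.05). The study's own empirical test over permuted samples was not run. Intervals are unadjusted 95% intervals. Sums were compared by exact permutation tests. Symbols and coordinates came from GENCODE M21 (12347 of 12353 identifiers matched), promoter windows from RefSeq (8 of the 10 members matched), and alignments were made with Biopython 1.88 (BLOSUM62). Depth was recovered from low FPKM of genes with a single transcript, of which 94.7% to 97.9% came within 0.1 of a whole number of fragments (20% by chance). Residual FPKM depend on counting error at such numbers.

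Named genes were all 10 members, reticulon and REEP genes in the table, and from each list or the *Rtn4* surroundings those past the threshold and up to 3 with the smallest p. The members and lists were chosen with earlier results of these data known. Alternatives are given in the closing section. *Sptbn1*, *Acyp2* and *A630052C17Rik* lie outside this rule and were named after their values were seen.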

Additional observations from a re-analysis of the deposited data

How the results depend on the processing

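Member differences and counts of changed genes were recomputed under 12 alternatives. They were a pseudocount of 0.1, a minimum mean FPKM of 1, no quantile normalization, median scaling, no variance trend and robust variances. The rest left out each library in turn. Reticulon sums were recomputed only with quantile normalization, median scaling and each library left out. *Rtn1* had no value under the minimum mean, and the cell type markers were not recomputed. *Rtn4* passed in 12 of 12. The 9 other members gave 108 values, of which 0 passed (lowest adjusted p 0.0786) and 103 kept their direction. *Rtn2* turned to 0.0072 without quantile normalization. With 1 library left out, *Atl2* ranged from -0.034 to 0.093, *Reep5* from -0.010 to 0.022, *Atl3* from -0.090 to 0.0020 and *Rtn1* from -0.060 to 0.099. The difference in summed FPKM of reticulons other than *Rtn4* was -6.86 with quantile normalization, -11.4 with median scaling and -6.09 to 20.1 with 1 library left out.

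Leaving out 1 library gave 83 to 196 higher and 105 to 238 lower genes, against 233 and 340 with all libraries, with fewer samples in each fit. Among REEP genes 1 (*Reep4*) passed with a pseudocount of 0.1, without quantile normalization, with median scaling and with robust variances. Without quantile normalization 1 gene passed in the tubule list (*Lnpk*) and 1 in the contact site list (*Orai1*). ER stress genes numbered 2 with all libraries, 3 without quantile normalization, 1 without a variance trend and 0 to 1 with a library left out, Nogo partners 0 to 1, and sarcoplasmic reticulum genes 0 to 2 (*Atp2a1* and *Hrc*, or *Jph2*). The cause of these shifts was not tested. No paired analysis was possible because the FPKM columns carry no replicate numbers. With 3 mice per group an exact test cannot give a p below 0.1, and members near 3 FPKM, such as *Atl3*, rest on 13 to 370 fragments per library, depending on the transcript.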

Other observations

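Outside the ER-shaping genes, contact sites and the calcium store of the fiber were also measured. Of 11 genes for ER contact sites, 0 passed in limma and 3 had an unadjusted p under 0.05, which 20.5% of all genes had (median log2 difference -0.02). *Orai1*, the plasma membrane channel that opens when the store is empty, measured 28.1, 26.6 and 28.6 FPKM in Nogo+/+ and 33.4, 32.4 and 33.8 FPKM in Nogo-/-, with no overlap (difference 0.20, adjusted p = 0.0816). *Vapa* and *Vapb*, which tether the ER to other membranes, differed by -0.14 and -0.12 (adjusted p = 0.165 and 0.237).

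Of 16 genes for the sarcoplasmic reticulum and triad, 0 passed in limma and 4 had an unadjusted p under 0.05, beside the same 20.5% of all genes (median -0.01). *Asph*, whose locus also encodes junctional proteins, had 162 FPKM in each Nogo+/+ library and 149 to 153 FPKM in Nogo-/- (difference -0.14, adjusted p = 0.0639). *Atp2a1*, the calcium pump of fast fibers, had 3539 to 3655 and 3584 to 3837 FPKM (difference 0.06, adjusted p = 0.124). *Jph2*, which holds the junction together, had 259 to 276 and 224 to 266 FPKM (difference -0.19, adjusted p = 0.175). Summed FPKM of the list was 8253 to 8502.3 in Nogo+/+ and 8379 to 9054 in Nogo-/-. Only Sample 6 (9054) lay above the Nogo+/+ range, and Samples 4 and 5 reached at most 8501.5.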
